A study of Mus musculus with 12 samples.

Results

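Bone marrow cells that had been exposed to irradiation under Ab treatment (Ab_IR) were compared with cells of unirradiated control mice (Ctrl), to describe which transcripts remained away from the control level at 3 days after irradiation (3 dpi) and which had passed to its other side. The comparison holds 6 of the series' 12 RNA-seq libraries, 3 titled Ab_IR and 3 titled Ctrl, and they were chosen by these titles alone. All libraries came from wild-type mice and are labelled hematopoietic stem cells (HSCs) of bone marrow. The other groups are irradiation alone (IR) and irradiation with L (L_IR), with 3 libraries each, and they are used below only to give values side by side. The labels give Ab and L as letters only, with no dose or schedule, and no library of Ab without irradiation was analysed here. Mice were C57BL/6 and received a single sublethal whole-body exposure to gamma rays, and HSCs were sorted as cells without lineage markers that carry Sca-1 and c-Kit and lack Flt3 and CD34. Ages are not given in the sources used here. Levels are FPKM, fragments scaled to transcript length and to library size, and differences are on the scale log2(FPKM + 1), which understates the change of genes at low levels.

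Whole-body irradiation kills dividing progenitors and empties the marrow of most of its blood cells, while long-lived plasma cells, macrophages and megakaryocytes are more resistant. Stem cells sit beside osteoblasts, stromal cells and megakaryocytes, which supply collagenous matrix, chemokines and growth factors to the niche. A transcript that differs from the unirradiated level at this time can therefore belong to the sorted cells or to the neighbours that come with them. In bulk RNA, fewer cells of a type and less RNA per cell cannot be told apart.

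Several library-wide facts bear on the results. Ctrl replicate 1 listed 44.1% of rows at 0 against 25.3% to 27.3% in the other 5 libraries, and 73 rows at 0 there reached 1 FPKM or more in all 5 others. Transcripts of heart muscle parted the Ctrl libraries: Nppa, atrial natriuretic peptide, was at 51.8 and 62.5 FPKM in Ctrl replicates 2 and 3, at 0 in Ctrl replicate 1 and at 0, 0 and 0.26 in Ab_IR. It was at 51.2, 63.9 and 60.7 FPKM in IR and at 0 in all L_IR libraries, so wherever IR is set beside Ab_IR below, this difference and that between the treatments cannot be told apart. Nor can the difference between Ab_IR and Ctrl be told apart from it without Ctrl replicate 1, so the comparison was repeated both without that library and against it alone. Of the defining HSC genes, Hoxb5 and Fgd5 reached at most 0.10 FPKM in any of the 6 libraries. Mecom was at 0.22 to 0.25 FPKM in Ctrl and 0.06 to 0.12 FPKM in Ab_IR, below the level filter. Hlf stood between 1.14 and 2.40 FPKM, with means of 2.04 FPKM in Ctrl and 1.29 FPKM in Ab_IR. Mecom and Hlf were lower in every Ab_IR library than in any Ctrl library. The Hlf difference did not pass (adjusted p = 0.146 by limma). Procr was at 0.40 to 0.75 FPKM in Ctrl and 0.81 to 1.23 FPKM in Ab_IR, and Slamf1 at 0.20 to 0.34 and 0.76 to 0.88 FPKM, both below the level filter and higher in every Ab_IR library. Flt3 and Cd34, whose proteins the gate selects against, were measured at 10.5 ± 1.47 and 20 ± 0.895 FPKM in Ctrl (SD, n = 3) and at 7.50 ± 0.0643 and 17.5 ± 0.726 FPKM in Ab_IR. The cells are called the sorted cells below. The labels do not say that replicates are separate animals or pools, so p-values measure the spread between these libraries. The deposited values carry no read counts, and the depth behind them is unknown.

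Of 12134 genes with 1 FPKM or more in at least 3 of the 6 libraries, 112 (0.923%) differed between Ab_IR and Ctrl at an adjusted p under 0.05 (limma, Benjamini-Hochberg) and a log2 difference beyond 1 in either direction. Of these, 84 (0.692%) were higher in Ab_IR and 28 (0.231%) were lower. At any fold, 255 genes (2.1%) passed the adjusted p, 176 higher (1.45%) and 79 lower (0.651%). The libraries of the groups did not overlap for any of the 112 called genes, and for 33.5% of all genes tested. Genes of immunoglobulins, the antibody chains made by plasma cells, made up 47 of the 84 higher and 6 of the 28 lower genes. Among the other 59 genes, bone matrix and stromal genes were the gene list with the most calls (9 lower), and the class I MHC and the secondary and later neutrophil granule lists held 2 lower genes each. On the higher side, the platelet, heat shock, iron handling, and inflammatory cytokine and chemokine lists held 2 each, and Ppbp stands in the first and the last of these. At the edge of the fold threshold, Ighv1-4 lay just inside and Siglec1 just outside, both at 1 after rounding, and on the lower side Igfbp5 (-1.01) lay inside and Gm11353 (-0.98) outside.

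**Figure D1:**
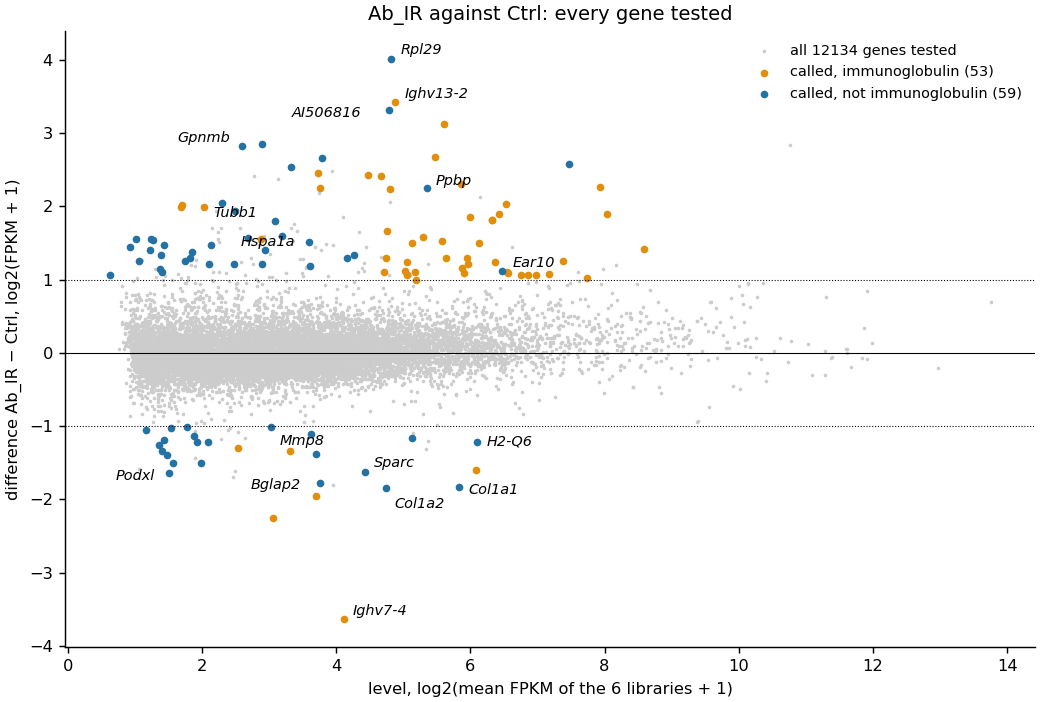
Each point is a gene, placed by its level (log2 of the mean FPKM of the 6 libraries plus 1) and by its difference Ab_IR minus Ctrl on the log2(FPKM + 1) scale, with dotted lines at the fold threshold. Grey points are the 12134 genes tested, orange the 53 called immunoglobulin genes and blue the 59 other called genes, among which Rpl29 (4.01) lies highest and Col1a2 (-1.84) lowest.

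To say whether a called gene had stayed changed, its difference between IR and Ctrl was set beside it. Both comparisons use the same Ctrl libraries. In IR against Ctrl, 918 of 12072 genes (7.6%) were called, 366 higher (3.03%) and 552 lower (4.57%). Of the 112 genes called in Ab_IR, 60 were called on the same side of Ctrl in IR and are described as still changed, 5 were called on the opposite side and are described as overshooting, 37 were not called in IR, and 10 did not pass the level filter there. Put the other way, 321 of the genes called higher in IR were tested in Ab_IR, and 45 of them (14%) were still higher, while 15 of the 552 genes called lower in IR (2.72%) were still lower. Of the 60 still changed genes, 42 lay between the Ctrl and IR levels and 18 lay further from Ctrl than IR did.

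**Figure D2:**
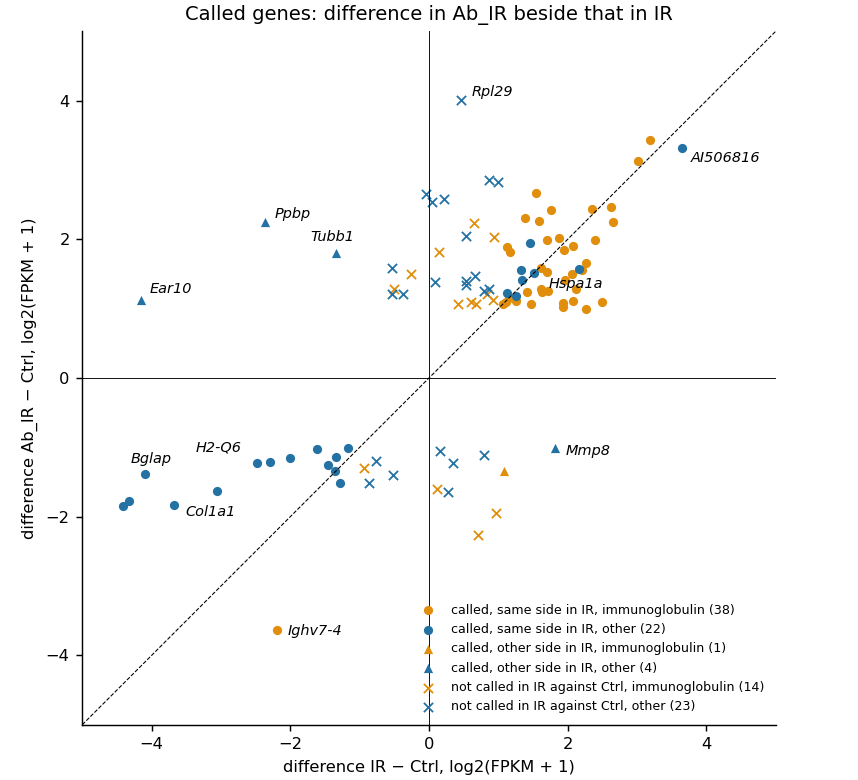
Each point is a gene called in Ab_IR against Ctrl and tested in IR against Ctrl, with the difference IR minus Ctrl on the horizontal axis and Ab_IR minus Ctrl on the vertical axis, both on the log2(FPKM + 1) scale. Circles are genes called on the same side in IR (38 immunoglobulin, 22 other), triangles on the opposite side (5) and crosses not called in IR (37). On the dashed line both differences are equal, and since both contain the same Ctrl libraries the axes are not independent. Col1a1 and Bglap lie far left of the line, Hspa1a on it, and Ppbp, Tubb1 and Ear10 at upper left.

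Genes of the bone matrix were the largest listed group that remained lower. In a list of 26 bone matrix and stromal genes, 18 were tested. Of these, 9 were called lower in Ab_IR, against 0.231% of all genes, and none was called higher. The median difference was -0.76, against -0.00413 over all genes tested. Col1a1, the alpha 1 chain of type I collagen (GRCm38 chromosome 11, 94936224 to 94953042), was at 79.3, 85.3 and 100.2 FPKM in Ctrl and at 22.1, 26.5 and 23.6 FPKM in Ab_IR. Every Ab_IR library was thus below every Ctrl library, by 1.83 ± 0.113 on the log2 scale (SE, adjusted p = 0.00129). Col1a2, its partner chain, was at 38.1, 40.7 and 43.4 FPKM in Ctrl and at 10.7, 11.0 and 10.4 FPKM in Ab_IR. It fell by 1.84 ± 0.0744 (adjusted p = 0.000207), close to the value of Col1a1, with which it is assembled. In IR the same transcripts were far lower still, at 5.98 ± 0.248 and 0.963 ± 0.0153 FPKM, so that Ab_IR kept 49.9% and 41.7% of the IR difference on the log2 scale.

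The other matrix genes lay lower in Ab_IR to differing degrees. Sparc, a collagen-binding protein of osteoblasts, was at 29.2, 30.3 and 35.6 FPKM in Ctrl, at 9.66, 10.5 and 8.48 FPKM in Ab_IR and at 2.93 ± 0.247 FPKM in IR. Bglap and Bglap2 encode osteocalcin, the hormone-like protein that mature osteoblasts deposit in bone, and their near-identical copies could share reads. Bglap2 was at 22.6, 17.7 and 19.3 FPKM in Ctrl and at 5.06, 4.39 and 5.74 FPKM in Ab_IR, and was nearly absent from IR at 0.12, 0 and 0 FPKM. Bglap was at 11.3, 22.5 and 19.9 FPKM in Ctrl and at 6.03, 6.20 and 5.80 FPKM in Ab_IR, and its difference was -1.66 without Ctrl replicate 1 and -0.81 against that library alone. Osteocalcin transcripts were therefore measured in Ab_IR and all but missing in IR, yet remained below every Ctrl library. Ibsp, bone sialoprotein, was at 5.69, 3.68 and 3.64 FPKM in Ctrl, at 1.37, 1.26 and 1.17 FPKM in Ab_IR and at 0.0667 ± 0.0404 FPKM in IR. Cxcl12, the chemokine that retains HSCs in marrow, showed a smaller difference of -0.46 (adjusted p = 0.0479), short of the fold threshold, with 3.78 to 4.10 FPKM in Ctrl and 2.37 to 2.78 FPKM in Ab_IR.

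A second set of matrix genes lay near the IR level in Ab_IR or further from Ctrl. Lum, lumican, a proteoglycan that spaces collagen fibrils, was at 2.82 ± 0.645 FPKM in Ctrl, 0.490 ± 0.0557 in IR and 0.497 ± 0.126 in Ab_IR. Igfbp5, an IGF-binding protein of osteoblasts, was at 3.60 ± 0.352 FPKM in Ctrl, 1.05 ± 0.166 in IR and 1.29 ± 0.0379 in Ab_IR. Dcn, decorin, was lower in Ab_IR at 0.56, 0.55 and 0.37 FPKM than in any Ctrl library (1.68, 3.74 and 3.83 FPKM), while its IR difference of -0.52 was not called (adjusted p = 0.143). Outside the list, and chosen after their values were seen, Bgn (biglycan, -1.19), Serpinh1 (the collagen chaperone HSP47, -1.14) and Col11a1 (a fibrillar collagen chain, -1.26) were also called lower. Bgn was further from Ctrl in Ab_IR (0.650 ± 0.0721 FPKM) than in IR (1.2 ± 0.0265), as was Dcn. Over the whole list, the summed level was 282 to 322 FPKM in Ctrl, 130 to 138 in Ab_IR, 120 to 124 in L_IR and 73.7 to 76.0 in IR. Without Ctrl replicate 1, 9 genes of the list were called lower, against 0.247% of all genes, and the median was -0.77, and against that replicate alone the median was -0.67. All are genes of stromal cells that the gate is meant to leave out, and the share of such cells in the sorted material was not tested.

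**Figure D3:**
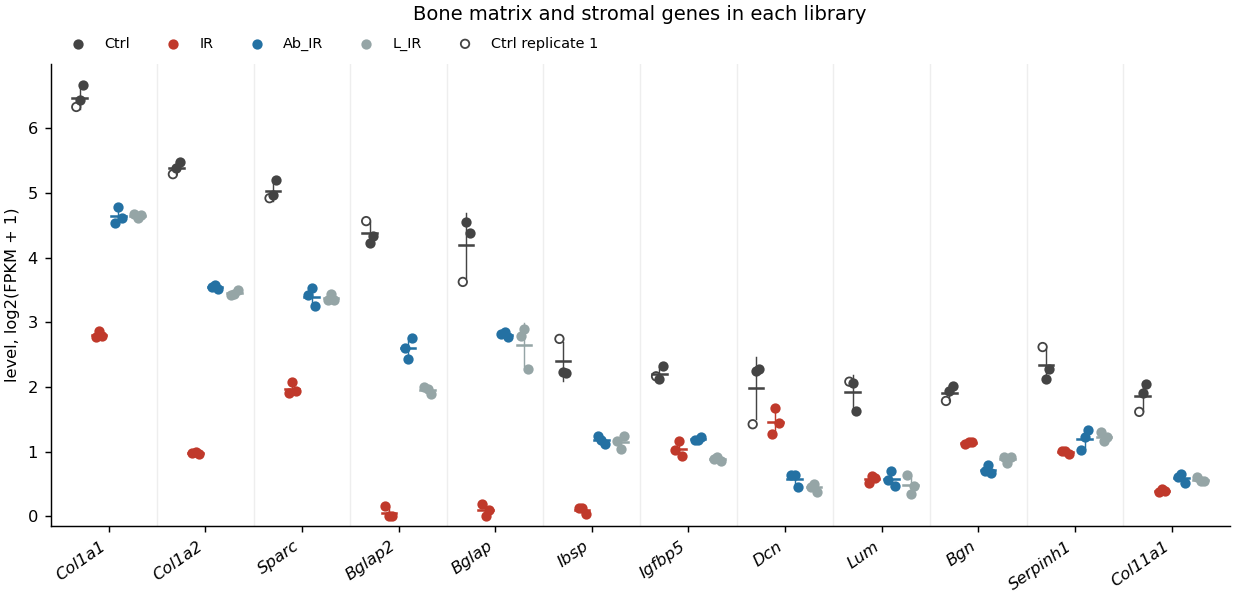
Level of 12 bone matrix and stromal genes in each library, as log2(FPKM + 1), with the mean and SD of the 3 libraries of a group. Ctrl is dark, with replicate 1 open, IR red, Ab_IR blue and L_IR grey. In every gene all Ab_IR points lie below all Ctrl points. In Col1a1, Col1a2, Sparc, Bglap2, Bglap and Ibsp they lie above IR, and in Dcn and Bgn below it.

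A pair of class I MHC genes of the Q region was also lower. Of 19 class I and immunoproteasome genes tested, H2-Q6 and H2-Q7 were called, both lower, against 0.231% of all genes called lower. The list median was -0.08. They encode non-classical class I molecules (Qa-2) and are close copies of each other, so reads may be divided between them with error. H2-Q6 was at 96.5, 96.0 and 93.8 FPKM in Ctrl and at 40.6, 43.3 and 37.3 FPKM in Ab_IR, a difference of -1.22 ± 0.078 (adjusted p = 0.00129). H2-Q7 was at 42.2, 48.3 and 51.8 FPKM in Ctrl and at 19.6, 22.1 and 20.2 FPKM in Ab_IR, a difference of -1.16 ± 0.0973 (adjusted p = 0.00256). Both lay between Ctrl and IR, where they were at 16.3 ± 0.748 and 11.0 ± 0.245 FPKM. The classical molecule H2-K1 differed by -0.55 (adjusted p = 0.0166), short of the fold threshold, and H2-D1 by -0.23 (adjusted p = 0.201). In L_IR, H2-Q6 was at 37.1 to 41.0 FPKM, within the range of Ab_IR or just below it, and H2-Q7 at 22.9 to 24.6 FPKM, above every Ab_IR library.

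Other lower genes belonged to no listed group. Podxl, the sialomucin podocalyxin found on early progenitors, megakaryocytes and endothelium, was at 4.04, 2.87 and 3.08 FPKM in Ctrl, at 0.35, 0.38 and 0.42 FPKM in Ab_IR and at 4.23 ± 0.159 FPKM in IR. Its level was thus far below Ctrl in Ab_IR with an IR difference of 0.28 (adjusted p = 0.0891), and it was as low in L_IR (0.33 to 0.52 FPKM). Cpe, a prohormone-processing carboxypeptidase, fell by 1.51 ± 0.136 (adjusted p = 0.00347). Car3, a carbonic anhydrase of muscle and fat, was lower in Ab_IR (0.903 ± 0.0666 FPKM against 2.89 ± 0.518 in Ctrl) and lower still in IR (0.257 ± 0.0666 FPKM), and its call was lost without Ctrl replicate 1 (-0.92).

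On the higher side, the inducible heat shock genes were still close to their IR level. Hspa1a and Hspa1b encode the inducible HSP70 chaperones, which refold proteins after stress. Hspa1a was at 4.63, 5.15 and 6.19 FPKM in Ctrl, at 16.1, 18.3 and 16.4 FPKM in Ab_IR and at 17.1 ± 0.784 FPKM in IR. Its difference was 1.51 ± 0.109 from Ctrl (adjusted p = 0.0016), and the difference between Ab_IR and IR was -0.01 (adjusted p = 0.874). Hspa1b was at 7.04, 5.56 and 6.86 FPKM in Ctrl and at 14.97, 17.3 and 15.4 FPKM in Ab_IR, a difference of 1.18 ± 0.105 (adjusted p = 0.0034). In L_IR they were at 15.1 to 16.5 and 14.6 to 16.5 FPKM. They are near-identical neighbours on chromosome 17, and reads may be shared between them. Of 22 heat shock chaperones tested, no other was called, and the list median was -0.02, while 0.692% of all genes were called higher.

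The 250 bases before the annotated start of each gene are shown because the pair moved together. Sequences are RefSeq promoters on GRCm38.p6, 5′ to 3′ along the gene, at chr17:34972157-34972406 for Hspa1a and chr17:34959239-34959488 for Hspa1b, both on the minus strand. Capitals mark GAANNTTC, the paired unit of a heat shock element, searched on both strands.
Hspa1a: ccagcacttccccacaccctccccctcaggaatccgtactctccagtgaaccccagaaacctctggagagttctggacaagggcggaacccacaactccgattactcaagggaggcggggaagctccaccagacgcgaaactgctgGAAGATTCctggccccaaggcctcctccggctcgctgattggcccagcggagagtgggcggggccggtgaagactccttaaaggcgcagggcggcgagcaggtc
Hspa1b: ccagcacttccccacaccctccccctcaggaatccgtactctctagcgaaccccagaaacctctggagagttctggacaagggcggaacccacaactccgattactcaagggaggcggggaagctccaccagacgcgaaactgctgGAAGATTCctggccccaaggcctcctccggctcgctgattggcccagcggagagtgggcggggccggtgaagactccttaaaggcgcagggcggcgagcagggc
Each holds the motif a single time, beginning 104 bases before the start, and 6.69% of 32817 promoter windows of this length hold it. The windows are identical at 247 of 250 positions, with the substitutions C44T, T47C and T249G from Hspa1a to Hspa1b, counted from the first base shown. A match of letters describes the sequence only.

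Outside the listed groups, AI506816, Zfp979 and Zfp990 were still higher as in IR. AI506816, an uncharacterized transcript on chromosome 5 (23698296 to 23712667), showed the largest of these differences, with 3.60, 4.42 and 4.16 FPKM in Ctrl and 50.9, 48.7 and 48.3 FPKM in Ab_IR. It rose by 3.32 ± 0.0827 (adjusted p = 4.18e-05) and was higher still in IR at 62.2 ± 1.07 FPKM. Zfp979 and Zfp990, zinc-finger genes of a multicopy cluster on chromosome 4, were at most 0.31 FPKM in Ctrl and at 2.41 ± 0.136 and 2.01 ± 0.149 FPKM in Ab_IR. Their reads may be shared among cluster copies. Phlda3, a p53 target that restrains AKT, was higher at 3.73 ± 0.927 FPKM against 0.983 ± 0.463 in Ctrl (1.26 ± 0.224, adjusted p = 0.047), whereas its IR difference of 0.80 (adjusted p = 0.0229) was short of the fold threshold. It was the only called gene of 30 p53 targets tested, against 0.692% of all genes called higher. Cdkn1a, which encodes the cell cycle inhibitor p21, differed by 0.42 (adjusted p = 0.0383), short of the fold threshold.

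Monocyte and macrophage genes gave a single call. Of 25 tested genes in a monocyte and macrophage list, only Hmox1 was called, the median was 0.21, and 4 were higher and 1 lower at any fold. Over all genes 0.692% were called higher, and 1.45% were higher and 0.651% lower at any fold. Hmox1, heme oxygenase 1, which breaks heme down to iron and biliverdin, was at 10.7, 9.5 and 7.98 FPKM in Ctrl and at 25.0, 24.3 and 23.6 FPKM in Ab_IR. It rose by 1.29 ± 0.105 (adjusted p = 0.00232), and lay at 18 ± 2.16 FPKM in IR, where its difference of 0.87 was short of the fold threshold. Outside the list, Gpnmb, a lysosomal glycoprotein of macrophages and osteoclasts, was at 0, 2.01 and 0.04 FPKM in Ctrl and at 11.0, 8.78 and 8.70 FPKM in Ab_IR. Ms4a6d, a membrane protein of macrophages, was at 1.01, 3.61 and 2.49 FPKM in Ctrl, at 8.76, 8.44 and 8.18 FPKM in Ab_IR and highest in IR at 13.3 ± 0.89 FPKM. On the log2 scale the Ctrl values of both genes varied more than those of Ab_IR, and the groups did not overlap.

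Further called genes, none in the monocyte and macrophage list, were Il1rn, the antagonist of the interleukin 1 receptor (2.05 ± 0.152, adjusted p = 0.00178), and Capg, an actin-capping protein (1.4 ± 0.145, adjusted p = 0.00613). The others were chosen after their values were seen. Fcgr1, the high-affinity IgG receptor, rose by 1.22 ± 0.173 (adjusted p = 0.0208) to 4.98 ± 0.486 FPKM and was at 4.63 ± 0.407 FPKM in IR. The complement receptor C3ar1, the aminopeptidase Anpep (CD13), the osteoclast protease Ctsk and the monocyte chemokines Ccl7 and Ccl12 were called at low levels, with Ab_IR means of 1.08 to 2.74 FPKM, and Ccl12 was listed at 0 in all Ctrl libraries. Ctsk was an exception among these in L_IR, where it was at 0.59 to 1.08 FPKM, near Ctrl at 0.690 ± 0.0265. None of 5 defining macrophage markers passed the adjusted p with all libraries. Differences were 0.47 for Adgre1 (F4/80, adjusted p = 0.0892), 0.27 for C1qb (adjusted p = 0.162) and 0.59 for Cd5l (adjusted p = 0.257). C1qa differed by -0.16 (adjusted p = 0.476) and Vcam1 by -0.30 (adjusted p = 0.103). Without Ctrl replicate 1, only C1qa passed, at -0.32 (adjusted p = 0.0425), and against that library alone it differed by 0.14. Cd5l differed by 0.31 without Ctrl replicate 1 and by 1.16 against it alone. The part of macrophage RNA in these differences was not tested.

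**Figure D4:**
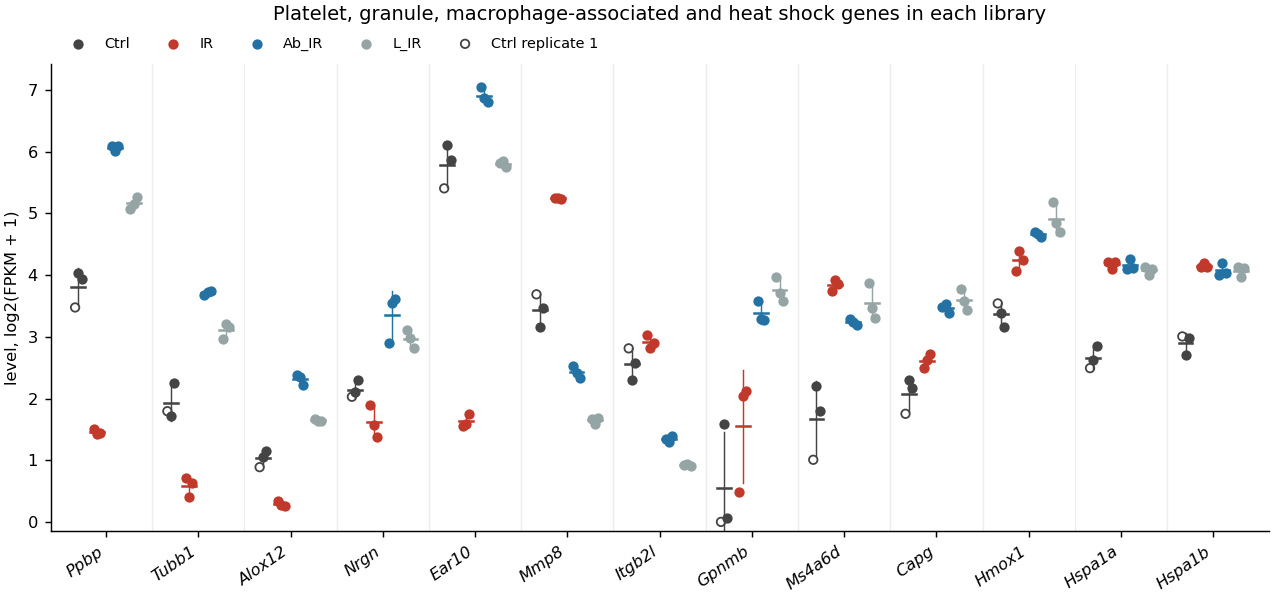
Level of 13 genes in each library, as log2(FPKM + 1), with the mean and SD of the 3 libraries of a group, in the same colours as the plot of bone matrix genes (Ctrl dark, replicate 1 open, IR red, Ab_IR blue, L_IR grey). Ppbp, Tubb1 and Ear10 are below Ctrl in IR and above it in Ab_IR, Mmp8 shows the reverse order, and Hspa1a and Hspa1b lie close together in IR, Ab_IR and L_IR, above Ctrl.

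Overshoot was seen in 5 genes, of which Ppbp and Tubb1 are platelet genes. Ppbp encodes the platelet granule chemokine that is processed to CXCL7. It was at 10.1, 15.3 and 14.3 FPKM in Ctrl, at 1.84, 1.70 and 1.71 FPKM in IR and at 67.5, 63.9 and 67.0 FPKM in Ab_IR. Ab_IR was therefore 2.25 ± 0.147 above Ctrl (adjusted p = 0.00129), while IR differed from Ctrl by -2.36 (adjusted p = 9.54e-05). Tubb1, the beta tubulin of platelets and megakaryocytes, was at 2.47, 2.28 and 3.77 FPKM in Ctrl, at 0.507 ± 0.159 FPKM in IR and at 11.8, 12.3 and 12.4 FPKM in Ab_IR, a difference of 1.80 ± 0.146 (adjusted p = 0.00232). L_IR lay between Ctrl and Ab_IR for both, at 32.5 to 37.7 FPKM for Ppbp and 6.85 to 8.23 FPKM for Tubb1.

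Other platelet genes were measured beside this pair. In the list of 24 megakaryocyte and platelet genes, 22 were tested, 2 were called higher, 4 were higher at any fold, none was lower, and the median was 0.33, while 0.692% of all genes were called higher and 1.45% were higher at any fold. In IR the list's median was -1.22. Pf4, platelet factor 4, was at 18.6, 24.7 and 27.1 FPKM in Ctrl and at 38.1, 36.5 and 39.0 FPKM in Ab_IR, a difference of 0.68 that did not pass (adjusted p = 0.0681). Itga2b, the integrin CD41, differed by 0.28 (adjusted p = 0.107). Outside the list, Alox12, the platelet lipoxygenase, rose by 1.29 ± 0.104 to 3.99 ± 0.291 FPKM (adjusted p = 0.00232), and Nrgn, a calmodulin-binding protein of neurons and platelets, rose by 1.21 ± 0.196 to 9.49 ± 2.60 FPKM (adjusted p = 0.0327). Without Ctrl replicate 1, 3 genes of the list were called higher and 11 were higher at any fold, against 0.766% and 3.6% of all genes, and the median was 0.32 both without that library and against it alone. The third gene, Treml1, a receptor of platelet granules, was at 3.66, 1.60 and 1.78 FPKM in Ctrl, and differed by 0.90 with all libraries (adjusted p = 0.116), by 1.17 without Ctrl replicate 1 and by 0.37 against it alone. The summed level of the list was 267 to 288 FPKM in Ctrl, 396 to 406 in Ab_IR, 287 to 293 in L_IR and 133 to 141 in IR.

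The promoter window of Ppbp is printed because this transcript lay furthest from Ctrl on the log2 scale among the overshooting genes. It is the RefSeq window on GRCm38.p6 at chr5:90768268-90768517, plus strand, 5′ to 3′, with TATAAA in capitals.
Ppbp: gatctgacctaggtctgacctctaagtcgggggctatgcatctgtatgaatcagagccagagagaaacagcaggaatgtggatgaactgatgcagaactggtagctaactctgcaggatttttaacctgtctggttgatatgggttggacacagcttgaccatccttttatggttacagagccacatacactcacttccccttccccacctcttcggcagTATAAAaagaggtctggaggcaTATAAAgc
The motif stands at 30 and at 8 bases before the start, and 12.4% of the 32817 windows hold it on either strand. No factor's binding was measured.

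Ear10, an eosinophil-associated ribonuclease, also overshot. It was at 41.4, 68.1 and 57.1 FPKM in Ctrl, at 2.11 ± 0.24 FPKM in IR and at 132.1, 116.0 and 110.4 FPKM in Ab_IR, a difference of 1.12 ± 0.181 (adjusted p = 0.033). The difference was 0.92 without Ctrl replicate 1, so its call was lost there, and 1.5 against that library alone. It belongs to a family of close copies. Its relative Ear2 was at 631 to 795 FPKM in Ctrl and at 932 to 1015 FPKM in Ab_IR, a difference of 0.42 (adjusted p = 0.133), and no other of the 12 eosinophil genes tested was called. The list's median was 0.26, against -3.72 in IR, and 0.692% of all genes were called higher.

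Mmp8, the collagenase of neutrophil granules, overshot downwards. It was at 11.9, 7.95 and 10.01 FPKM in Ctrl, at 36.9 ± 0.294 FPKM in IR and at 4.74, 4.34 and 4.06 FPKM in Ab_IR. It fell by 1.01 ± 0.14 (adjusted p = 0.0188), by 0.89 without Ctrl replicate 1, where the fold threshold was missed, and by 1.26 against that library alone. Itgb2l, a beta 2-like integrin of neutrophils, fell by 1.22 ± 0.138 (adjusted p = 0.00905) to 1.55 ± 0.085 FPKM from 4.98 ± 1.06, and was at 6.53 ± 0.56 FPKM in IR. Both genes were lower still in L_IR, at 1.99 to 2.23 and 0.87 to 0.92 FPKM. They were the called genes among 22 of the secondary and later granules, against 0.231% of all genes called lower. The list median was 0.05 against 1.01 in IR. None of 13 primary granule genes was called by limma, with 1 at an unadjusted p under 0.05.

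Immunoglobulin genes were the most numerous group. They took 9% to 11.1% of the summed FPKM in Ctrl, 13.5% to 14.3% in Ab_IR, 17.2% to 18% in IR and 21.9% to 22.6% in L_IR. Of 232 tested, 47 were called higher and 6 lower, against backgrounds of 0.692% and 0.231% over all genes. Variable segments differ between antibody clones, and close copies can share reads, so single values are uncertain. Of 100 kappa variable genes tested, 28 were called higher and 0 lower (47 and 2 at any fold in the limma test), with a median difference of 0.71. Of 100 heavy chain variable genes, 11 were called higher and 6 lower (29 and 8 at any fold), with a median of 0.35. In the list of 203 variable genes, 79 were higher and 10 lower at any fold, and without Ctrl replicate 1 these counts were 125 and 17, against 3.6% and 2.38% of all genes. The kappa segments summed to 5034 to 6047 FPKM in Ctrl and 9582 to 9929 in Ab_IR, and the heavy segments to 6919 to 8862 and 9531 to 10231 FPKM.

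Most of the higher antibody genes were also higher in IR. Of the 47, 37 were still changed, and they kept from 44.1% to 173% of the IR difference, with a median of 90.3%. Ighv13-2 was at 3.21, 4.91 and 3.99 FPKM in Ctrl and at 54.6, 54.2 and 50.1 FPKM in Ab_IR, a difference of 3.43 ± 0.128 (adjusted p = 0.000152), with 44.3 FPKM on average in IR. Igkv17-127, an abundant kappa segment, was at 186 to 225 FPKM in Ctrl, 538 to 576 FPKM in Ab_IR and 798 to 822 FPKM in IR. Ighe, the constant region of IgE, was at 2.65, 4.39 and 4.27 FPKM in Ctrl and at 20.6, 22.5 and 20.8 FPKM in Ab_IR, a difference of 2.25 ± 0.157 (adjusted p = 0.00134). Of 11 constant genes tested, Ighe, Iglc1 and Iglc3 were called, against 0.692% of all genes called higher. At any fold 9 were higher, against 1.45% of all genes, and the median was 0.94.

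Some variable genes went the other way. Ighv7-4 was at 34.0, 29.8 and 29.5 FPKM in Ctrl, at 6.04 FPKM on average in IR and at 1.25, 1.53 and 2.06 FPKM in Ab_IR. It fell by 3.63 ± 0.128 (adjusted p = 0.000135), the largest fall of all called genes. Ighv1-61 was at 142.5, 79.5 and 84.9 FPKM in Ctrl and at 33.3, 33.1 and 29.6 FPKM in Ab_IR, with an IR difference of 0.12 (adjusted p = 0.694). Ighv1-37, the remaining overshooting gene, was at 9.89 to 14.9 FPKM in Ctrl, 27.1 to 31.4 FPKM in IR and 3.77 to 5.89 FPKM in Ab_IR. All 6 lower antibody genes were heavy chain variable segments.

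Plasma cell genes were measured beside them, in a list of 25 that holds antibody constant genes and genes that are not antibody chains. The 1 called higher was Iglc1, an antibody constant gene, and no other gene of the list was called. With the antibody constant genes counted in, 10 were higher at any fold, with a median of 0.60. Of all genes, 0.692% were called higher and 1.45% were higher at any fold. Without Ctrl replicate 1, 16 were higher at any fold, against 3.6% of all genes. Jchain, which links IgA and IgM chains, was at 630, 617 and 513 FPKM in Ctrl and at 1008, 919 and 934 FPKM in Ab_IR, a difference of 0.70 (adjusted p = 0.0289). Sdc1 (CD138) differed by 0.72 (adjusted p = 0.00834), and Prdm1, the plasma cell regulator BLIMP1, by 0.08 (adjusted p = 0.65). Mzb1 differed by 1.09 (adjusted p = 0.142), by 0.72 without Ctrl replicate 1 (adjusted p = 0.00258) and by 1.85 against that library alone. The B cell genes Pax5 and Ebf1 were at most 0.73 and 0.39 FPKM in any of the 6 libraries. The part of plasma cells in the antibody differences was not tested.

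Some higher genes without a call in IR were ribosomal or pseudogene sequences. Rpl29, a protein of the large ribosomal subunit, was at 0.39, 4.72 and 3.44 FPKM in Ctrl and at 52.2, 52.3 and 50.9 FPKM in Ab_IR, the largest rise of all called genes at 4.01 ± 0.491 (adjusted p = 0.0122). It was at 3.53 ± 0.248 FPKM in IR and at 47.3 to 49.0 FPKM in L_IR, so Ctrl and IR lay together, and so did Ab_IR and L_IR. Rpl30-ps9, Gm12191 and Gm10709, processed pseudogenes, showed the same arrangement, with differences of 2.66, 2.58 and 2.54. Gdpd3, which encodes a lysophospholipase D, was at 0.43, 0.95 and 1.10 FPKM in Ctrl, 11.9 to 12 FPKM in Ab_IR, 1.98 to 2.84 FPKM in IR and 12.1 to 13.4 FPKM in L_IR. Ribosomal pseudogenes and multicopy genes such as Dynlt1b (1.34), Gm11127 (1.59), Gm10499 (1.21) and Tmem181b-ps (1.55) can trade reads with their copies, and their values are uncertain. Rpl29 was the only called gene of 88 cytosolic ribosomal protein genes tested, against 0.692% of all genes called higher. The list median of 0.30 became 0.03 without Ctrl replicate 1.

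Most gene groups related to irradiation showed no called gene. None was called among 8 sort gate genes, 25 HSC-enriched genes (median -0.09, against -0.66 in IR), 27 erythroid genes (-0.17, against -2.50 in IR), 40 S phase genes (0.03), 40 G2/M genes (-0.07), 34 DNA repair genes (-0.15), 31 components of IGF1 receptor, AKT and mTOR signalling (-0.11) or 31 hematopoietic cytokine receptors (-0.01) in the limma test. At any fold, Clca3a1 (-0.67, adjusted p = 0.00905) among the HSC-enriched and Car1 among the erythroid genes passed, both lower, and without Ctrl replicate 1 each of these 2 lists had 5 genes lower and none higher, and the sort gate list had 2 of 8 lower, against 2.38% lower and 3.6% higher over all genes. At an unadjusted p under 0.05 the lists held 3, 9, 12, 6, 9, 8, 6 and 11 genes in the same order, against 2533 of the 12134 genes tested. Of the erythroid genes, Car1, carbonic anhydrase 1, was at 545 ± 52.3 FPKM in Ctrl, 36.7 ± 0.902 in IR and 370 ± 16.4 in Ab_IR, a difference of -0.55 (adjusted p = 0.047) short of the fold threshold. Kit, the stem cell factor receptor, differed by -0.35 (adjusted p = 0.114) and Flt3 by -0.43 (adjusted p = 0.109), and without Ctrl replicate 1 Flt3 differed by -0.34 (adjusted p = 0.0453). Mki67, the proliferation antigen, differed by -0.53 (adjusted p = 0.197) with Ctrl values that varied widely (129 ± 37.1 FPKM against 87.0 ± 2.68 in Ab_IR). Igf1r differed by -0.23 (adjusted p = 0.241) and Mtor by -0.30 (adjusted p = 0.33), and Igf1 itself was below the filter at 0.160 ± 0.142 and 0.280 ± 0.0436 FPKM. A gene without a call is not thereby shown to be at the Ctrl level.

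Iron and ferroptosis genes gave 2 calls and type I interferon-stimulated genes gave 0. Of 29 iron handling and ferroptosis genes tested, Hmox1 and Alox12 were called, both higher, against 0.692% of all genes called higher. The list median was 0.02. Fth1, the ferritin heavy chain, was at 251 ± 22.6 FPKM in Ctrl and 354 ± 19.0 in Ab_IR (0.50, adjusted p = 0.0636), and its receptor for autophagic degradation, Ncoa4, at 27.4 ± 2.32 and 20.9 ± 0.745 FPKM (-0.37, adjusted p = 0.0882). Gpx4, which reduces lipid peroxides, differed by 0.27 (adjusted p = 0.323), and Slc7a11, the cystine transporter, was below the filter. Of 53 type I interferon-stimulated genes, 0 were called and 0 passed limma's adjusted p at any fold, while 19 had an unadjusted p under 0.05, and 1 was higher and 2 were lower at any fold without Ctrl replicate 1, against 3.6% and 2.38% of all genes. Ifit3 (1.59, adjusted p = 0.178) and Rsad2 (1.47, adjusted p = 0.16) had large differences within wide spread, at 3.14 ± 3.14 and 3.10 ± 2.52 FPKM in Ctrl and 10 ± 4.78 and 9.37 ± 3.25 FPKM in Ab_IR.

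The comparison was repeated without Ctrl replicate 1 on the same 12134 genes. Of the 112 genes, 101 were called again on the same side, 76 of the 84 higher and 25 of the 28 lower, within a total of 123 (1.01%). The 11 lost were 7 antibody genes with Ear10, Mmp8, Car3 and Serpinh1. At any fold, 726 genes (5.98%) passed in place of 255 (2.1%), and the median SD of log2 values over genes fell from 0.162 for the 3 Ctrl libraries to 0.0833 for replicates 2 and 3, beside 0.0713 for Ab_IR. Against Ctrl replicate 1 alone, a fit in which the lone library is assumed to vary like Ab_IR, all 112 genes kept their sign. That sign was fixed in advance, since the libraries of the groups did not overlap for any called gene, so only the sizes of the differences are informative. Without Ctrl replicate 1 and against it alone, respectively, the difference was 2.08 and 2.59 for Ppbp, 1.73 and 1.92 for Tubb1, 1.43 and 1.67 for Hspa1a, 1.23 and 1.07 for Hspa1b, and 1.38 and 1.12 for Hmox1. On the lower side it was -1.21 and -1.24 for H2-Q6, -1.24 and -1 for H2-Q7, -1.52 and -1.87 for Podxl, and -1.90 and -1.69 for Col1a1. The medians of the lists were -0.20 and 0.14 for class I MHC genes, -0.00 and -0.06 for heat shock chaperones, and 0.19 and 0.20 for monocyte and macrophage genes, so the class I median changed its sign. At any fold and without Ctrl replicate 1, 3.6% of all genes were higher and 2.38% lower. Of 22 secondary and later granule genes, 2 were higher and 6 lower, and of 25 monocyte and macrophage genes, 6 were higher and 2 lower. Of 12 eosinophil genes, 4 were higher and 0 lower, and of 29 iron and ferroptosis genes, 5 were higher and 1 lower. Nearer to the shares of all genes, 1 of 40 S phase genes was higher. On the lower side, 1 each of 40 G2/M, 34 DNA repair and 31 cytokine receptor genes passed. Bglap and Dcn were nearer to Ab_IR in Ctrl replicate 1 than in the other Ctrl libraries, and Rpl29 was further from it. Of the called higher genes, 9 were listed at 0 in Ctrl replicate 1.

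**Figure D5:**
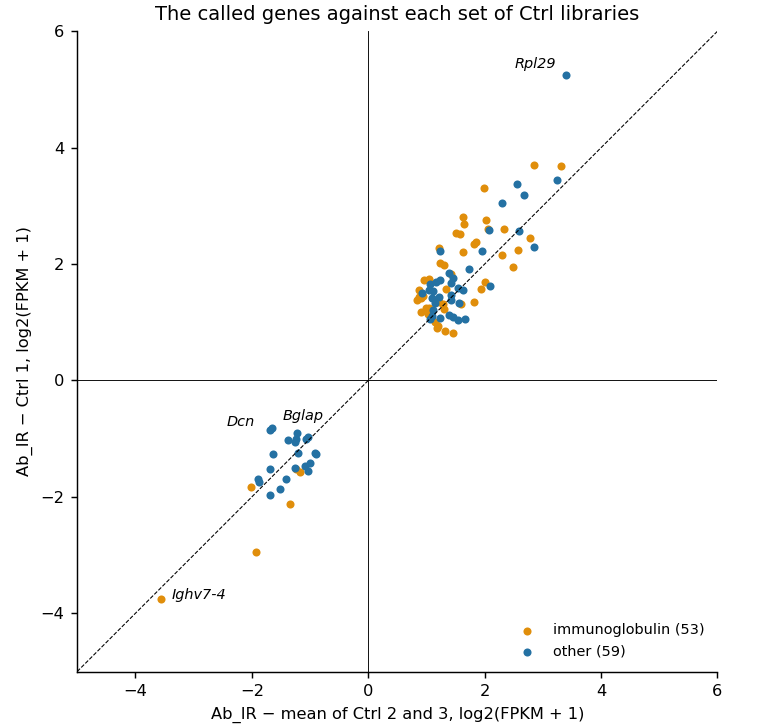
Each point is a called gene, with its difference between Ab_IR and the mean of Ctrl replicates 2 and 3 on the horizontal axis and its difference between Ab_IR and Ctrl replicate 1 on the vertical axis, both on the log2(FPKM + 1) scale. Orange points are the 53 immunoglobulin genes and blue points the 59 others. Every point keeps its sign on both axes, which was fixed because the libraries of the groups did not overlap for any called gene. Rpl29 lies furthest above the dashed line of equal values.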

How the data were processed

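RNA of sorted bone marrow HSCs was sequenced as stranded poly(A) libraries. Per the labels' processing notes the authors used fastp, HISAT2 and StringTie on GRCm38 (mm10), whereas the study's methods name RSEM. The annotation version is not given in the sources used here. The deposited values, whose unit the files do not name, were read as FPKM as the authors computed them. They are not counts, so the depth is unknown and 0 means listed at 0.

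Values were log2(FPKM + 1), fitted with limma 3.58.1 in R 4.3.3 (lmFit, then eBayes with a mean trend) over the 6 libraries and genes at 1 FPKM or more in at least 3 of them. A gene was called where its Benjamini-Hochberg adjusted p-value was under 0.05 and its difference exceeded 1 in size. All adjusted p-values come from limma. IR against Ctrl, Ab_IR against IR and L_IR against Ctrl were fitted likewise for values set side by side. The step was tested on simulated data: of 200 genes changed by 1.5 on the log2 scale among 12134, 89% to 94.5% were called in 10 runs.

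Members and the 47 gene lists were chosen with earlier results of these data known. Genes named are the called genes without overlap between libraries that rose most (15) and fell most (15), with a mean of 5 FPKM or more and without predicted names or antibody variable genes, then the called genes of each list (up to 3 members with the largest absolute difference where none was called), a panel of 17 genes, and still changed or overshooting genes of that level. Other genes, among them every other called gene named, were chosen after their values were seen. Positions are from GENCODE M21, of which 96.7% of names matched 1 gene, and promoter windows from RefSeq (GRCm38.p6). Alternatives were pseudocount, filter, scaling, trend, all 12 libraries, replicate block, a term for the heart transcript split, and leaving out libraries.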

Additional observations from a re-analysis of the deposited data

How the results depend on the processing

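None of the 112 called genes changed sign under any setting run, and 52 kept their call under every setting in which they were tested. For settings that only leave out libraries the sign was fixed, since the groups did not overlap for any called gene. Of the counts, 112 genes called (84 higher, 28 lower), some moved beyond 1.5 times. Without the filter on low values 73 were called with 17 lower, and at a mean of 10 FPKM or more 68 with 12 lower. Without the fold threshold 255 passed, 176 higher and 79 lower. Against Ctrl replicate 1 alone 809 were called (667 higher, 142 lower), and with a term for the heart transcript split, which rests on that library, 804 (662 higher, 142 lower). With antibody genes left out and the rest rescaled, an alternative chosen after seeing the data, 59 were called (41 higher, 18 lower). Leaving out each library in turn gave 51 to 114 called, 39 to 93 higher and 12 to 21 lower, with 51, 53 and 54 called where an Ab_IR library was left out (without replicates 2, 3 and 1) and 76 without Ctrl replicate 3. The lower count was 18 without Ctrl replicate 2 and 12 without Ctrl replicate 3. The cause was not tested, beyond the smaller number of libraries.

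Among genes with no call, some differences changed sign. Ly6g (-0.60 to 0.06 with 1 library left out) became 0.06 without Ctrl replicate 2 and 0.63 against Ctrl replicate 1 alone and with the heart transcript term, Cd36 0.02 and C1qa 0.14 in the last pair of settings, Ly6a (-0.06 to 0.27 with 1 library left out) -0.06 in both fits without Ctrl replicate 1, and Akt1 -0.04 and Igkc -0.00 after quantile normalization. The replicate block gave 92 genes (72 higher, 20 lower). Correlations of same-numbered deviations were 0.121, -0.0871 and 0.224, so the numbers were not taken to pair libraries. The median difference over all genes was -0.025 after quantile normalization and 0.0107 after median ratio scaling. Unknown depth and 3 libraries per group limit the precision of low genes.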

Other observations

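Fosb, an immediate early transcription factor, was at 125 ± 13.1 FPKM in Ctrl and 77.0 ± 1.18 in Ab_IR (-0.68, adjusted p = 0.0187 by limma). It was the single gene of 26 immediate early genes that passed limma's adjusted p at any fold, against 2.1% of all genes. Without Ctrl replicate 1, 8 of the 26 were lower and 0 higher, against 2.38% and 3.6% of all genes.

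Leaving out Ctrl replicate 1 also added 22 calls, 17 of them higher and 11 of them antibody genes. Among them were Saa3, an acute phase protein (0.58, 2.27 and 0.22 FPKM in Ctrl, 8.25, 5.45 and 5.03 FPKM in Ab_IR), complement factor Cfb (0, 2.26 and 1.53 against 6.38, 5.13 and 5.41 FPKM), the chemokine Ccl5 (9.05, 20.4 and 13 against 39.9, 31.5 and 33.1 FPKM) and Pltp, phospholipid transfer protein (0.65, 1.91 and 1.02 against 5.07, 3.17 and 3.62 FPKM). With all 6 libraries their differences were 1.94, 1.71, 1.31 and 1.2 at adjusted p of 0.0587, 0.111, 0.0692 and 0.0658 by limma. These genes were chosen after their values were seen.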
